A study of Mus musculus with 8 samples.

Results

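Skeletal muscle genes were compared between the dorsal skin of wild-type mouse embryos and of embryos that lack GR, the glucocorticoid receptor, a transcription factor activated by steroids and encoded by Nr3c1. The set was a named list of 46 genes covering the embryonic, slow and fast fibre programmes, calcium handling, the myogenic transcription factors and muscle atrophy. Each gene was read at the probe set annotated to it alone that had the highest mean over all arrays, which gave values for 45 of the 46 among 18193 genes on the array. Mstn, the gene of the muscle growth inhibitor myostatin, had no probe set of its own and was not analysed here. Whole dorsal skin was taken at embryonic day 18.5, after caesarean delivery, from GR-/- embryos (GR-null) and their GR+/+ littermates (wild-type) of the strain B6D2/F1. Each group held 4 single-colour arrays, named here by the numbers in their labels: wild-type 4, 6, 28 and 29, and GR-null 5, 17, 25 and 26. Lists of 4 values follow this order. The labels do not give the disrupted allele, the litter of each embryo, or whether each array came from an embryo of its own, so p-values measure the spread between these samples.

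Mouse dorsal skin carries a thin sheet of skeletal muscle, the panniculus carnosus, beneath the dermis. As it matures, skeletal muscle passes from embryonic and perinatal myosin heavy chains to the adult ones. Its fibres diverge into slow oxidative and fast glycolytic types with their own troponins, light chains and calcium pumps. Glucocorticoids are known in adult muscle for inducing wasting, mainly of fast fibres, through ubiquitin ligases such as those encoded by Trim63 and Fbxo32.

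In GR-null skin 7 of the 45 muscle genes were lower than in wild-type skin and 0 were higher, by limma on all genes with Benjamini-Hochberg adjustment at 0.05. The 7 were Myh3 and Tnnt2 of the embryonic programme, Myl3, Tnnt1 and Mybpc1 of the slow programme, Actn2 of the sarcomere of all fibres, and Casq2 of calcium storage. They made up 15.6% of the members. Of all 18193 genes 2.96% were called, 1.56% as lower and 1.40% as higher. At an unadjusted p below 0.05, limma gave 21 members lower and 0 higher, while 11.1% of all genes were lower and 10.5% higher. All 4 GR-null arrays lay below all wild-type arrays in 11 members, 24.4% of them, against 6.30% of all genes, and above them in 0 members, against 6.69% of all genes. The median log2 fold change, GR-null minus wild-type, was -0.35 over the members and 0.00 over all genes. At an adjusted p below 0.01 limma called 0 members. The count was also 0 without wild-type 29 or without GR-null 25, and was 2 without wild-type 28, 3 without GR-null 26 and 4 without GR-null 5. Of the 8 fits that left out 1 array, Myl3 was past the threshold in 6, Tnnt2, Tnnt1 and Casq2 in 5 each, Myh3 in 3, and Mybpc1 and Actn2 in 1 each, with a negative log2 fold change of each gene in all 8.

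GR-null 17 stood apart from the other GR-null arrays in these genes. In it, 15 of the 45 members lay below all wild-type values, 17 within their range and 13 above. GR-null 5 had 34 below, 11 within and 0 above, GR-null 25 had 30, 13 and 2, and GR-null 26 had 30, 12 and 3. The shares of all genes below all wild-type values were 26.5%, 24.6%, 27.4% and 26.2% in these arrays, in the order 5, 17, 25 and 26. The shares of all genes above all wild-type values were 24.4% in GR-null 17 and from 20.9% (GR-null 5) to 30.2% (GR-null 26) in the others. Without GR-null 17, 21 members were lower, 46.7% of them, against 5.21% of all genes, and 0 were higher, against 3.80% of all genes. Results are therefore given with and without that array. It was singled out by its values in these same genes. Counts and p-values without it therefore describe the other arrays and are no separate evidence of a fall. In these bulk samples fewer muscle cells and less muscle RNA per cell cannot be told apart.

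**Figure D1:**
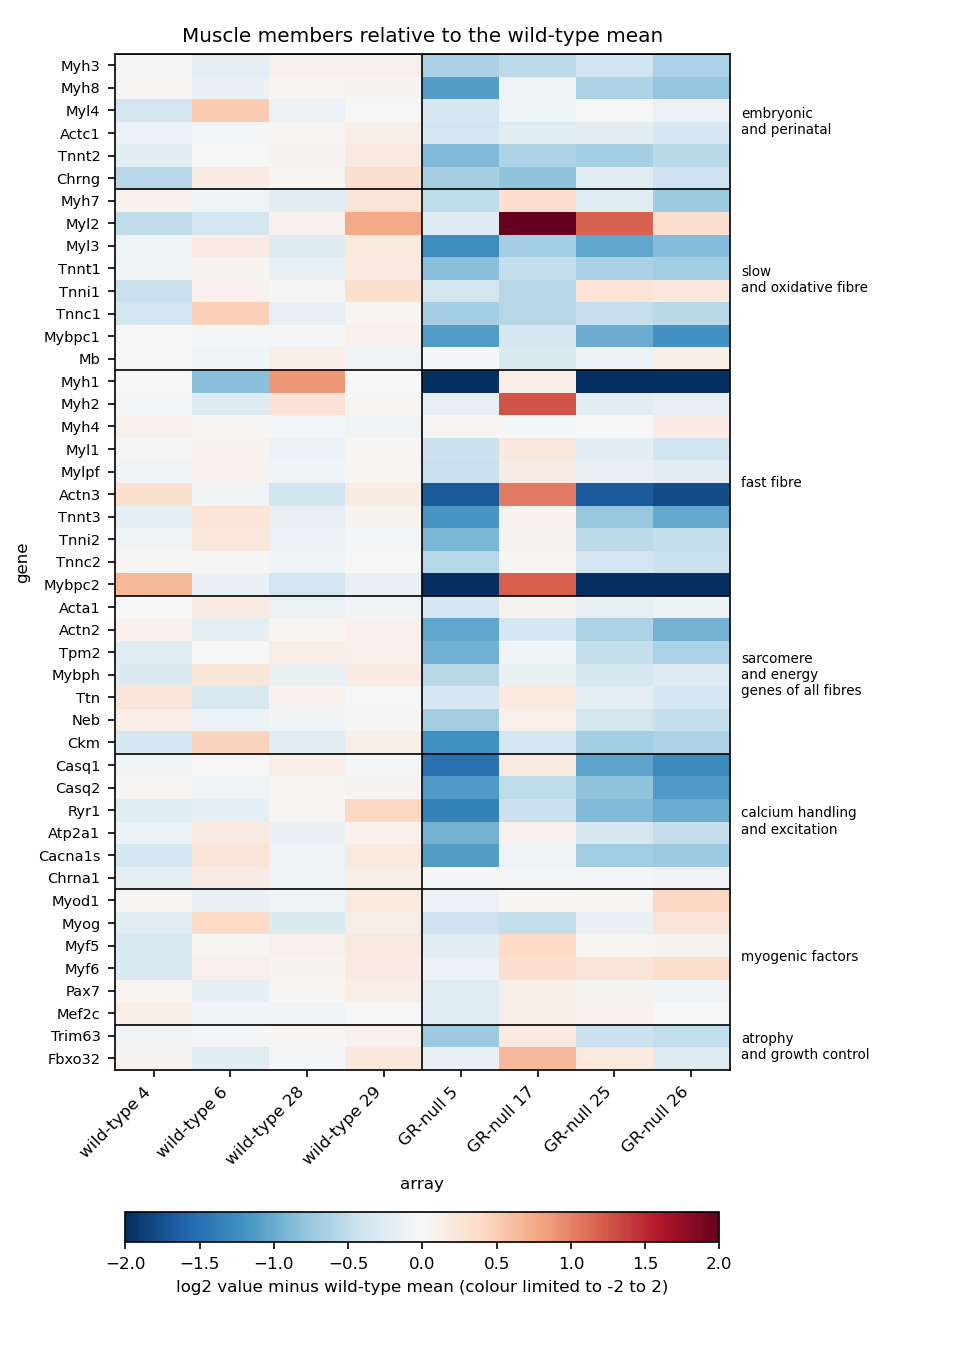
Difference in log2 value from the wild-type mean for the 45 members (vertical axis, grouped by programme) in each of the 8 arrays (horizontal axis), with blue lower and red higher. In each of GR-null 5, 25 and 26, 8 of the 10 fast fibre genes lie below all wild-type arrays, and in GR-null 17 none does, while Myh3, Tnnt2, Tnnt1, Myl3 and Casq2 are blue in all 4 GR-null arrays.

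As a check of the labels, Nr3c1 fell at 3 of its 6 probe sets, with log2 fold changes of -2.70, -1.86 and -0.84. The genotypes did not overlap there, and GR-null 17 was among the low arrays. The other 3 did not pass the threshold, and probe sets outside a disrupted stretch check nothing. Markers of epidermis and dermal fibroblasts had high signal in all arrays, with mean log2 levels of 13.09 to 13.47 and 13.50 to 13.70 in wild-type skin and of 13.18 to 13.41 and 13.57 to 13.75 in GR-null skin. Of 7 heart-restricted markers, Myh6, Nppa, Nppb, Tnni3 and Ryr2 read 3.86 to 4.97 in all 8 arrays, Mybpc3 read 5.94 to 6.55, and Myl7, the atrial light chain, read 5.78 to 6.68 in wild-type and 4.97 to 5.16 in GR-null skin. Myl7 fell by 1.16 ± 0.17 log2 (SE, adjusted p = 0.0158), and its part in the results for members that heart muscle also uses was not tested.

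Of the 6 embryonic and perinatal genes, Myh3 and Tnnt2 fell and the other 4 did not pass the threshold. All 6 log2 fold changes were below 0. Myh3, the embryonic myosin heavy chain, had log2 values of 13.37, 13.21, 13.49 and 13.49 on wild-type arrays 4, 6, 28 and 29 and of 12.74, 12.87, 12.99 and 12.75 in GR-null 5, 17, 25 and 26. The groups did not overlap, and GR-null 17 lay among the other GR-null arrays. The fall of Myh3 was 1.47-fold (log2 fold change -0.55, SE 0.09, n = 4 in each genotype, adjusted p = 0.0234); errors after ± on a fold change are SEs throughout. Tnnt2, the troponin T of heart and embryonic skeletal muscle, read 10.14, 10.34, 10.40 and 10.53 on the wild-type arrays, in the same order, and 9.47, 9.74, 9.69 and 9.81 on the GR-null arrays. Every GR-null value was again below every wild-type value, and Tnnt2 fell by 0.68 ± 0.11 (1.6-fold, adjusted p = 0.0182). A second Tnnt2 probe set fell by 0.74 ± 0.11. The third, with wild-type values of only 5.29 to 6.01, had a log2 fold change of 0.39 ± 0.25 and was not past the threshold. Of the Tnnt2 probe sets that fell, the one given first ends in _x_at, which marks possible uptake of related transcripts. The second ends in _a_at.

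Actc1, the actin of heart and embryonic skeletal muscle, had non-overlapping groups too, at 13.70, 13.78, 13.84 and 13.96 against 13.43, 13.58, 13.61 and 13.49. Its log2 fold change of -0.29 ± 0.08 missed the threshold (adjusted p = 0.0874). Myh8, the perinatal myosin, split the GR-null arrays. It read 13.51, 13.35, 13.52 and 13.54 in wild-type skin and 12.36, 13.41, 12.87 and 12.70 in GR-null skin, where only GR-null 17 reached the wild-type range. With all arrays its log2 fold change was -0.64 ± 0.19 (adjusted p = 0.0985), and without GR-null 17 it was -0.83 (adjusted p = 0.00854). Chrng, the fetal subunit of the acetylcholine receptor, and Myl4, the embryonic light chain, had log2 fold changes of -0.53 (adjusted p = 0.16) and -0.14 (adjusted p = 0.726).

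The slow and oxidative genes held 3 of the 7 falls. Myl3, the slow essential light chain, read 8.81, 9.07, 8.64 and 9.09 with the receptor and 7.66, 8.23, 7.86 and 8.04 without it. It fell by 0.96 ± 0.15 (1.94-fold, adjusted p = 0.0167), and 2 of its 3 probe sets were past the threshold. Those 2 end in _s_at and _x_at, which mark possible uptake of related transcripts. The third Myl3 probe set has no such ending. It had a log2 fold change of -0.34 ± 0.19 and was not past the threshold. Tnnt1, slow troponin T, read 11.90, 12.01, 11.78 and 12.11, then 11.11, 11.47, 11.30 and 11.25, and fell by 0.67 ± 0.10 (1.59-fold, adjusted p = 0.0167). Mybpc1, slow myosin-binding protein C and the slow gene of highest signal, read 12.50, 12.46, 12.46 and 12.59, then 11.38, 12.16, 11.51 and 11.29. Its GR-null values lay below the wild-type ones in all arrays, with GR-null 17 the closest. Mybpc1 fell by 0.92 ± 0.17 (1.89-fold, adjusted p = 0.0314), although its 2 other probe sets were not past the threshold at -0.39 and -0.07.

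The rest of the slow list did not move as one. Tnnc1, the troponin C of slow and heart muscle, had non-overlapping groups and a log2 fold change of -0.56 ± 0.16 (adjusted p = 0.093). Myh7, the slow myosin heavy chain, read 10.33 to 10.81 in wild-type skin and 10.04, 10.88, 10.31 and 9.84 in GR-null 5, 17, 25 and 26. Its groups overlapped, with adjusted p = 0.5. Tnni1, slow troponin I, had a log2 fold change of -0.10 with a 95% interval of -0.61 to 0.40. Mb, the gene of the oxygen store myoglobin, read 5.61 to 6.04 in all arrays. Myl2, the slow regulatory light chain, had the largest value in GR-null 17. It read 5.46, 5.61, 6.06 and 6.73 in wild-type skin and 5.71, 9.28, 7.15 and 6.30 in GR-null 5, 17, 25 and 26, and its log2 fold change of 1.14 ± 0.68 was not past the threshold (adjusted p = 0.379).

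**Figure D2:**
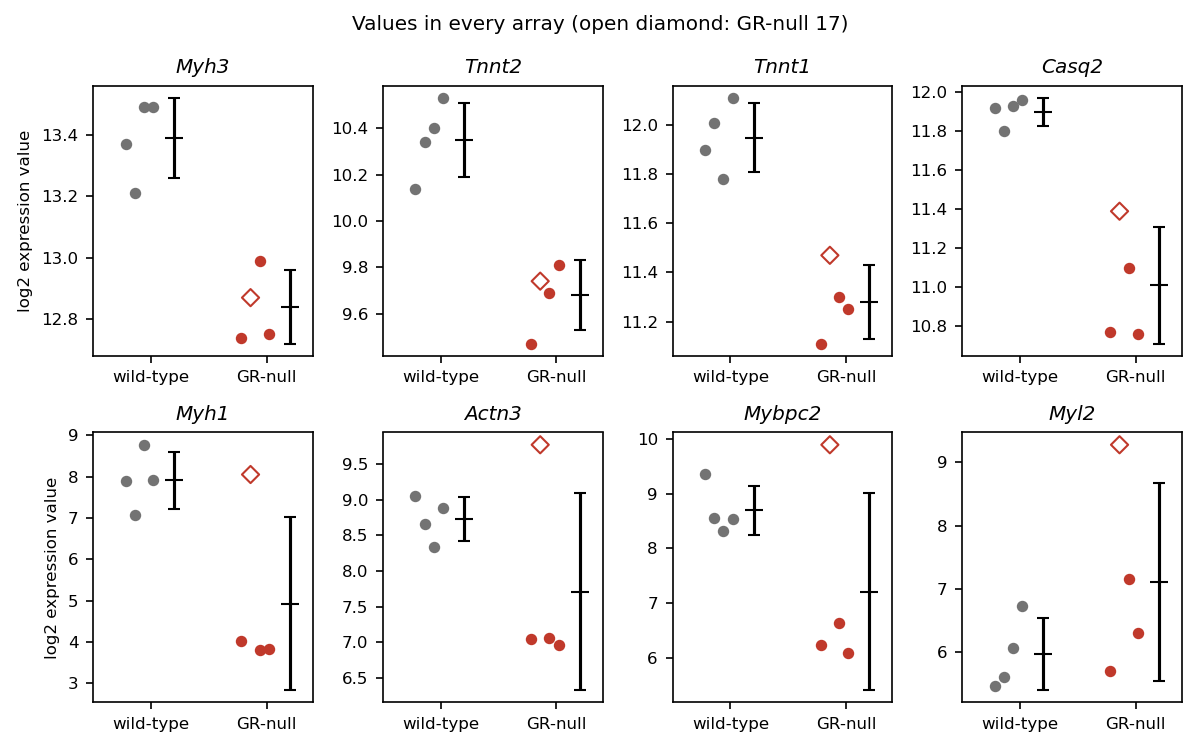
Log2 expression value in each array for 8 members (vertical axes differ between panels and do not start at 0), with wild-type in grey, GR-null in red and GR-null 17 as an open diamond; the black mark and bar give the mean and SD of each group of 4. Myh3, Tnnt2, Tnnt1 and Casq2 show no overlap between groups, while Myh1, Actn3 and Mybpc2 are low in 3 GR-null arrays and at or above the wild-type level in GR-null 17.

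None of the 10 fast fibre genes was past the threshold with all arrays (limma gave 4 lower and 0 higher at an unadjusted p below 0.05), and in 8 of the 10 the log2 fold change was below 0. In each of GR-null 5, 25 and 26, 8 of the 10 lay below all wild-type arrays, and in GR-null 17 0 lay below and 5 above. Myh1, the fast IIx myosin heavy chain, read 7.90, 7.08, 8.77 and 7.91 in wild-type 4, 6, 28 and 29. In GR-null 5, 25 and 26 it read 4.02, 3.80 and 3.82, and in GR-null 17 it read 8.05. The low values lay at the 6.98, 3.72 and 3.81 percentiles of all genes on their arrays, against 43.3 to 68.2 in the wild-type arrays and 55.9 in GR-null 17. The log2 fold change of Myh1 was -2.99 ± 0.89 (SE, adjusted p = 0.101) with all arrays and -4.03 ± 0.33 (adjusted p = 0.00132) without GR-null 17. Since the low values lie near the bottom of the scale and no detection calls were used, the size of this difference is not exact. A second Myh1 probe set showed a similar split, from 7.12 to 8.60 over the wild-type arrays, at 7.89 in GR-null 17 and from 3.84 to 3.98 in the others. The third read 4.60 to 5.07 in all arrays, with a log2 fold change of 0.03. The probe sets that showed the difference end in _a_at and _x_at. The _x_at ending marks possible uptake of related transcripts, here of other myosins, and such uptake was not tested for either probe set.

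Actn3, the alpha-actinin of fast fibres, and Mybpc2, fast myosin-binding protein C, were likewise highest in GR-null 17 among the GR-null arrays. Actn3 read 9.05, 8.66, 8.33 and 8.88 with the receptor and 7.05, 9.77, 7.06 and 6.96 without it. Mybpc2 read 9.35, 8.56, 8.32 and 8.54, then 6.23, 9.89, 6.64 and 6.09. For both genes GR-null 17 exceeded all wild-type arrays and the other GR-null arrays were below all of them. With all arrays their log2 fold changes were -1.02 ± 0.58 (adjusted p = 0.353) and -1.48 ± 0.76 (adjusted p = 0.3). Without GR-null 17 they were -1.71 (3.26-fold, adjusted p = 0.00266) and -2.37 (5.17-fold, adjusted p = 0.00324).

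The fast troponin genes were also highest in GR-null 17 among the GR-null arrays, with smaller differences. Tnnt3, fast troponin T, read 12.21, 12.67, 12.23 and 12.44, then 11.23, 12.46, 11.63 and 11.36. Tnni2 and Tnnc2, fast troponins I and C, were 0.07 and 0.04 log2 above the wild-type mean in GR-null 17. Without GR-null 17 the log2 fold changes of Tnnt3, Tnni2 and Tnnc2 were -0.98, -0.63 and -0.47, each past the threshold, and with all arrays they were -0.72, -0.46 and -0.34, each short of it. Myl1, the fast light chain and the fast gene of highest signal, read 13.94, 13.98, 13.79 and 13.93, then 13.48, 14.12, 13.70 and 13.51, with adjusted p = 0.449. For Mylpf, the fast regulatory light chain, the log2 fold change was -0.16 (adjusted p = 0.478). The adult fast myosins Myh2 (IIa) and Myh4 (IIb) read 4.23 to 5.30 in all arrays other than GR-null 17 for Myh2, which read 5.74 there.

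Thus the troponin T genes differed in where GR-null 17 lay. Relative to the wild-type mean it was -0.62 log2 in Tnnt2 and -0.48 in slow Tnnt1, and 0.07 in fast Tnnt3. The mean of the other 3 GR-null arrays was -0.70 in Tnnt2, -0.73 in Tnnt1 and -0.98 in Tnnt3. Whether the programmes differ in this was not tested, since it rests on 1 array.

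**Figure D3:**
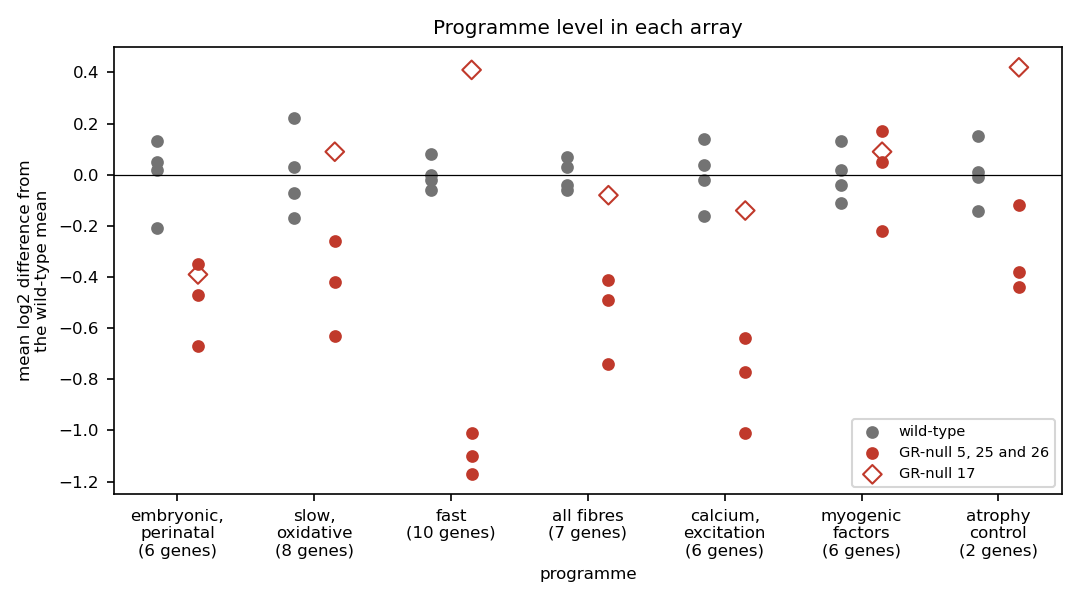
Mean difference from the wild-type mean (log2, vertical axis) over the genes of each programme (horizontal axis), 1 point per array. In the fast programme GR-null 17 lies at 0.41 and the other GR-null arrays between -1.17 and -1.01, while in the embryonic and perinatal programme all 4 GR-null arrays lie between -0.67 and -0.35.

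In the list of sarcomere and energy genes used by all fibres, Actn2 fell and the other 6 of 7 did not pass the threshold, all with log2 fold changes below 0. Actn2, the alpha-actinin of all Z-discs, read 12.41, 12.13, 12.37 and 12.43 in wild-type skin and 11.29, 11.99, 11.69 and 11.39 in GR-null 5, 17, 25 and 26, and fell by 0.75 ± 0.15 log2 (SE, 1.68-fold, adjusted p = 0.0395). Ckm, muscle creatine kinase, read 12.56, 13.35, 12.70 and 13.05, then 11.68, 12.55, 12.21 and 12.29. Its groups did not overlap, but it missed the threshold at -0.73 ± 0.22 (adjusted p = 0.0971). Acta1, skeletal alpha-actin and the gene of highest signal here, read 14.23, 14.39, 14.12 and 14.18, then 13.88, 14.28, 14.06 and 14.11, a log2 fold change of -0.15 with a 95% interval of -0.38 to 0.08. The giant proteins titin (Ttn) and nebulin (Neb), the tropomyosin Tpm2 and the myosin-binding protein Mybph had log2 fold changes of -0.17, -0.35, -0.53 and -0.32. Of the 6 Ttn probe sets, 1 of lower signal fell by 0.78 ± 0.15 and the others were not past the threshold. Without GR-null 17, Actn2, Tpm2, Neb and Ckm were lower.

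Of the 6 genes of calcium handling and excitation, Casq2 fell, and the other 5 had log2 fold changes below 0 that did not pass the threshold. Casq2, the calsequestrin of slow and heart muscle, read 11.92, 11.80, 11.93 and 11.96 in wild-type skin and 10.77, 11.39, 11.10 and 10.76 in GR-null 5, 17, 25 and 26. It fell by 0.90 ± 0.14 (1.86-fold, adjusted p = 0.0179). The only Casq2 probe set ends in _s_at, so related transcripts may add to its signal. Casq1, the fast fibre counterpart of Casq2, read 10.42, 10.49, 10.62 and 10.46, then 9.0, 10.67, 9.43 and 9.23, so that GR-null 17 exceeded all wild-type arrays. Its log2 fold change was -0.91 ± 0.31 (adjusted p = 0.139) with all arrays and -1.27 (adjusted p = 0.00215) without GR-null 17. Ryr1, the calcium release channel, had non-overlapping groups at 9.40 to 10.05 and 8.29 to 9.21, and its log2 fold change of -0.92 ± 0.21 fell just short of the threshold (adjusted p = 0.0508). Cacna1s, the voltage sensor that opens it, and Atp2a1, the calcium pump of fast fibres, had log2 fold changes of -0.66 and -0.42, with GR-null 17 inside the wild-type range for both. Chrna1, the alpha subunit of the acetylcholine receptor, read 8.02 to 8.05 in the GR-null arrays and 7.89 to 8.23 in the wild-type arrays, a log2 fold change of -0.05 with a 95% interval of -0.25 to 0.16.

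The promoters of the genes that fell are shown for 1 gene of each of 3 programmes, because these genes had lower values in the same 4 arrays. The lines give the 250 bases before the transcription start from RefSeq (build GRCm38.p6), in the direction of the gene, with each E-box (CANNTG, the core bound by the myogenic factors, the same on both strands) in capitals. Myh3 lies at chr11:67078050-67078299 on the plus strand, Tnnt1 at chr7:4515976-4516225 on the minus strand and Casq2 at chr3:102086165-102086414 on the plus strand.
Myh3: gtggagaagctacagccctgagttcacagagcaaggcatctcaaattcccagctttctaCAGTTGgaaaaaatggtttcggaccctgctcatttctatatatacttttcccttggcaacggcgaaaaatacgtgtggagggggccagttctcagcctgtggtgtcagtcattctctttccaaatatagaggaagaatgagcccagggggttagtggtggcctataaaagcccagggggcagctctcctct
Tnnt1: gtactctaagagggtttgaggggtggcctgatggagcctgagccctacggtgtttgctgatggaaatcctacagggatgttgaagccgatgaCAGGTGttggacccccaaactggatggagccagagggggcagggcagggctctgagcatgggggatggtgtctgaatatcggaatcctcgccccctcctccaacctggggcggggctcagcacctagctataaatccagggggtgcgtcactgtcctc
Casq2: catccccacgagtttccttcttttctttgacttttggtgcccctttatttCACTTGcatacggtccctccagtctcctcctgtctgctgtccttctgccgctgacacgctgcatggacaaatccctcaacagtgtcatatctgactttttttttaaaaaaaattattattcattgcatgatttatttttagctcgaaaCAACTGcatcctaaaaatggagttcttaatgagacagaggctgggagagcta
An E-box was found in a promoter of all 7 genes that fell, in 31 of the 38 measured members with a promoter in the table, and in 66.2% of all 32851 promoters. The letters AGAACA, part of the element bound by the glucocorticoid receptor, on either strand, were found in 2 of the 7, in 8 of the 38 and in 16.1% of all, and TATAAA in 2 of the 7, in 11 of the 38 and in 12.4% of all. A gene with several promoters counted when any of them held the match. The percentages of all are per promoter, so they are not a like measure. These are matches of letters in a short window.

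The myogenic transcription factors did not pass the threshold in either direction (limma gave 0 of 6 at an unadjusted p below 0.05 as well), with a median log2 fold change of 0.03. Myod1 and Myf5, which commit cells to muscle, differed by 0.09 log2 (95% interval from -0.19 to 0.38) and by 0.07 (from -0.27 to 0.40). Myog, which drives fusion and differentiation, read 9.01, 9.60, 8.94 and 9.34 in wild-type skin and 8.81, 8.75, 9.09 and 9.47 in GR-null 5, 17, 25 and 26, with an interval of -0.63 to 0.24. Myf6, the late factor of fibres, read 8.32, 8.73, 8.69 and 8.80, then 8.52, 8.97, 8.87 and 8.98, and had the smallest p of the list (adjusted p = 0.446). Mef2c, a partner of these factors and the gene of highest signal here, read 10.96, 10.78, 10.76 and 10.83, then 10.59, 10.96, 10.90 and 10.82. Pax7, the satellite cell factor, read 5.52 to 5.89 in all arrays, with an interval of -0.27 to 0.21. Without GR-null 17 no factor was past the threshold either.

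Trim63 and Fbxo32, ubiquitin ligases of muscle wasting that glucocorticoids induce in adult muscle, were not past the threshold with all arrays. Trim63 read 8.08, 8.12, 8.20 and 8.25 with the receptor and 7.43, 8.35, 7.73 and 7.66 without it. Its log2 fold change was -0.37 ± 0.17 (adjusted p = 0.26), and -0.55 (adjusted p = 0.0136) without GR-null 17. Fbxo32 read 6.52 to 6.97 in wild-type skin and 6.61, 7.41, 6.95 and 6.5 in GR-null 5, 17, 25 and 26. In both genes the highest of all 8 values was that of GR-null 17.

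**Figure D4:**
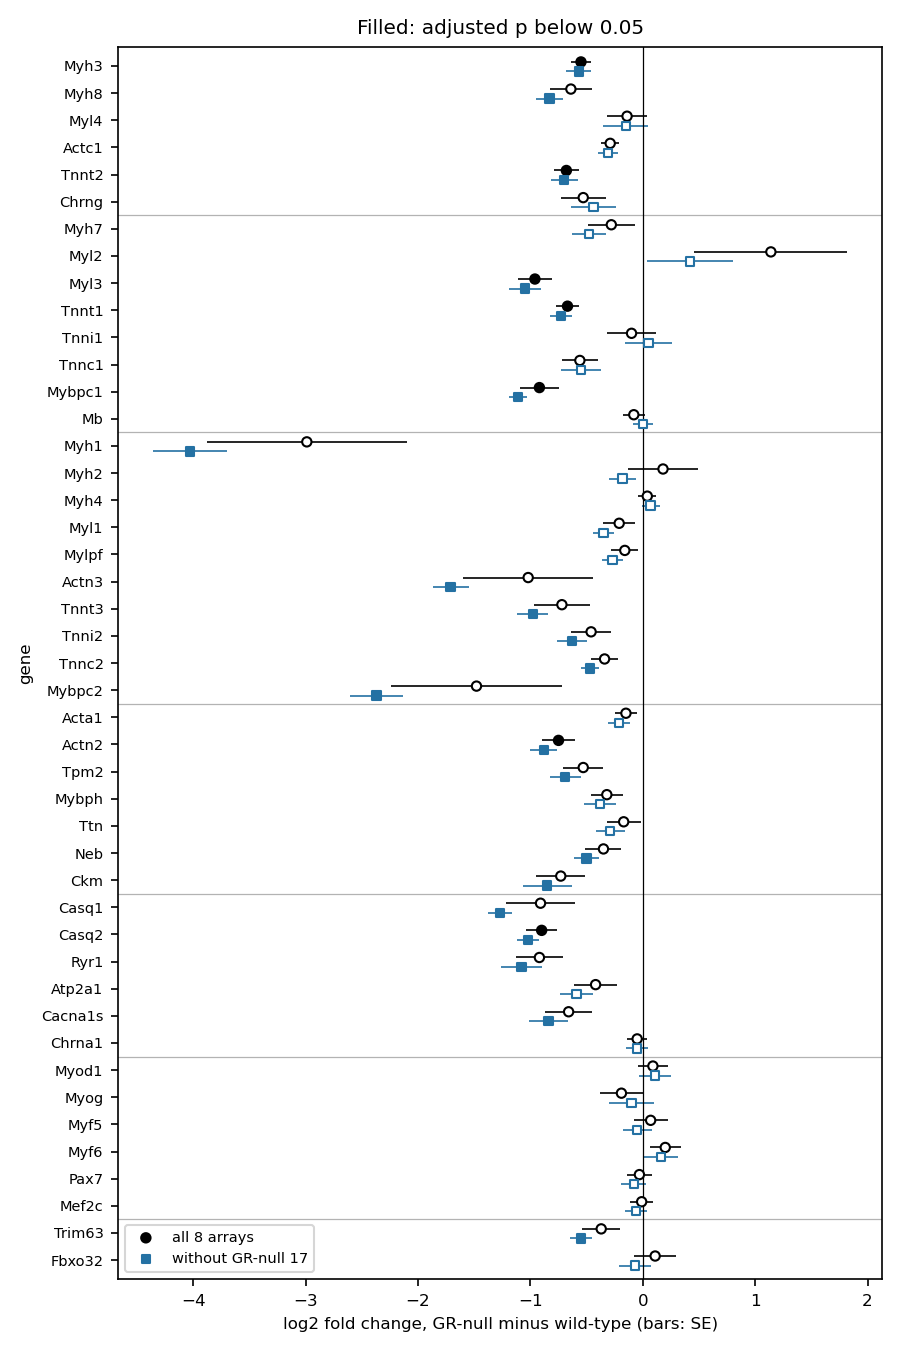
Log2 fold change, GR-null minus wild-type, with SE for the 45 members (vertical axis, in the order of the programmes), with all 8 arrays (black circles) and without GR-null 17 (blue squares). Filled symbols have an adjusted p below 0.05: 7 with all arrays and 21 without GR-null 17, all lower.

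Muscle genes outside the 46 were counted in the same way. Of 61 other measured muscle genes 6 fell, 9.84% of them against the 1.56% of all genes, 0 rose and 55 were not past the threshold. Sarcolipin (Sln), a small inhibitor of the calcium pump, fell by 1.11 ± 0.16 log2 (SE, adjusted p = 0.014). Cacng1, a calcium channel subunit of muscle, fell by 0.86 ± 0.13 (adjusted p = 0.0167), and Mymk, the membrane protein that fuses myoblasts, fell by 0.65 ± 0.10 (adjusted p = 0.0176). The M-band protein gene Myom2, sarcalumenin (Srl), a calcium-binding protein of the sarcoplasmic reticulum, and the transcription factor gene Mef2d fell by 0.61, 0.53 and 0.35. Sln was past the threshold at 1 of its 2 probe sets, Mef2d at 1 of 3 and Myom2 at 3 of 4. Cacng1, Mymk and Srl had 1 probe set each. In all 6 genes every GR-null array, GR-null 17 included, lay below every wild-type array. The mean log2 value over the 61 genes was 9.09 to 9.20 in the wild-type arrays. GR-null 17 lay in that range at 9.11, and GR-null 5, 25 and 26 lay below it at 8.51, 8.78 and 8.67. Without GR-null 17, 29 of the 61 were lower and 1 was higher.

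The mean of those 61 genes, taken as the general muscle level, was then used as a covariate. In that fit 0.33% of all genes were called, and 0 members were lower and 1 was higher. That member was Myl2, at 3.38 ± 0.32 log2 (SE, adjusted p = 0.0216). In that fit the log2 fold changes of the 6 embryonic and perinatal genes ran from -0.64 for Chrng to -0.03 for Myh8, and Myh3 and Tnnt2 were no longer past the threshold at -0.45 (adjusted p = 0.287) and -0.55 (adjusted p = 0.256). Those of the 10 fast genes ran from -0.45 for Myh1 to 1.06 for Myh2, with 8 above 0, among them Tnnt3 at 0.01 and Tnnc2 at 0.02. The covariate lay below the wild-type range in GR-null 5, 25 and 26. It therefore largely tracked genotype, and the fit leaned on GR-null 17. For Myl2, that array lay 3.32 log2 above the wild-type mean. The fit therefore cannot tell whether members differ beside the general muscle level. The difference between the programmes was not tested, and the covariate fit was not run without GR-null 17.

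Of 18 genes that glucocorticoids are known to induce or that act in their response in muscle, 5 fell and 0 rose, beside 1.56% and 1.40% of all genes. At an unadjusted p below 0.05 limma gave 9 lower and 1 higher, beside 11.1% and 10.5% of all genes. The 5 were Zbtb16, Fkbp5, Per1, Klf9 and Cebpd, with log2 fold changes of -2.55, -2.11, -1.27, -1.18 and -0.85. Klf9 was past the threshold at 2 of its 7 probe sets, Cebpd at 1 of 2, Fkbp5 at 2 of 3 and Zbtb16 at 3 of 3. Per1 had 1 probe set. In GR-null 17 these 5 genes lay at -2.15, -2.01, -1.39, -0.47 and -0.34 log2 relative to the wild-type mean. For Pdk4, which spares glucose in muscle, the log2 fold change was -1.23 (adjusted p = 0.0834), and Klf15 and Foxo1, regulators of atrophy genes, had 0.05 and -0.36. Of the 18 log2 fold changes 14 were below 0 and 4 above. The largest above 0 was that of Ddit4, at 1.02 ± 0.45 (limma adjusted p = 0.23). Ddit4 was the 1 gene higher at an unadjusted p below 0.05. These genes are also active outside muscle, and the arrays do not tell in which cells of the skin they were read.

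Markers of other cell types were read in the same arrays. The mean of 8 smooth muscle markers was 8.59 to 8.72 log2 in wild-type arrays, 8.92 in GR-null 17 and 8.07 to 8.20 in the other GR-null arrays. With all arrays 0 of the 8 passed the threshold (2 lower at an unadjusted p below 0.05 by limma). Without GR-null 17, 5 of the 8 were lower, 62.5% of them, against 5.21% of all genes. Lower values without that array were thus also read in this list. GR-null 17 was left out for its values in the skeletal muscle members, so this count is no separate evidence. Whether skeletal muscle adds to the signal of these markers was not tested. The mean of 7 adipocyte markers ranged from 7.57 to 9.60 in wild-type and from 7.27 to 9.41 in GR-null skin, with GR-null 17 the highest GR-null array. None of the 7 adipocyte, 4 brown fat, 3 Schwann cell and 5 endothelial markers measured passed the threshold (at an unadjusted p below 0.05 limma gave 1, 2, 2 and 2 of them lower and 1 Schwann cell marker higher, beside the 11.1% and 10.5% of all genes). The mean of the 4 brown fat markers was 6.10 to 6.91 in wild-type and 5.75 to 5.96 in GR-null arrays. All 4 log2 fold changes were below 0. In 2 of the 4 every GR-null array lay below every wild-type array, beside 6.30% of all genes. The means of dermal fibroblast and epidermis markers lay close together in all arrays, as given above. Trp63 was the single marker of these past the threshold and rose by 0.60 ± 0.12 (adjusted p = 0.0372). In each of these lists of 6, every GR-null array lay below every wild-type array for 1 marker and above for 1. The shares of all genes were 6.30% and 6.69%. Of 6 tendon and fascia markers, Tnmd rose by 1.08 ± 0.22 (adjusted p = 0.0396). The Y-linked gene Eif2s3y read 3.31 in GR-null 17 and 3.43 in wild-type 6, against 8.83 to 9.51 in the other arrays. In the fast fibre genes the mean difference was 0.41 in GR-null 17 and -0.06 in wild-type 6. GR-null 17 was the only GR-null array with a low Eif2s3y value. Within GR-null skin the Y-linked level therefore cannot be told apart from anything else particular to that array. The part of any of these in the muscle results was not tested.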

How the data were processed

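The authors deposited 1 log2 value for each probe set of 8 Affymetrix mouse arrays. The submitters' processing notes name RMA, a method that corrects background, makes array distributions alike and combines a probe set's probes. The sources used here give no version of it and no filter. Array medians were 6.46 to 6.52. No detection calls were used, so a low value does not show absence, and the number of arrays limits the precision.

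Of 45101 probe sets, 64 controls were left out. Of the rest, 34945 had 1 gene symbol in the platform annotation, 932 several and 9160 none. A linear model with genotype was fitted to all 45037 with limma 3.58.1 (lmFit, eBayes, two-sided) in R 4.3.3, read at 1 probe set per gene and adjusted over 18193 genes by Benjamini-Hochberg at 0.05. On simulated arrays with independent noise, this recovered 44.0% of changed genes at a shift of 0.5 log2, 89.7% at 1 and 98.8% at 2.

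The members and lists were chosen with earlier results of these data known. Array values are given for members past the threshold and, in each programme, for the gene of highest signal and that of smallest p. Other genes with array values, and Pdk4, Klf15, Foxo1, Ddit4 and Eif2s3y, were chosen after their values were seen. Alternatives were a further quantile normalization, a filter at the 40th percentile of signal, an intensity trend with robust prior, array weights, the mean of all probe sets, leaving out _x_at, _s_at and _a_at probe sets, the Y-linked level or the other muscle genes as covariates, a threshold of 0.01, and leaving out each array.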

Additional observations from a re-analysis of the deposited data

Results flagged for a closer look

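In 4 of the 90 groups of 4 arrays tested (45 members in 2 genotypes), 1 array lay far from the other 3 of its genotype, and in all 4 it was GR-null 17 in a fast fibre gene; chance alone gives about 1 in 20 groups. Myh1 read 8.05 log2 there against 3.80 to 4.02 in the other GR-null arrays, Actn3 read 9.77 against 6.96 to 7.06, Mybpc2 read 9.89 against 6.09 to 6.64, and Myh2 read 5.74 against 4.27 to 4.33. The wild-type ranges of these genes were 7.08 to 8.77, 8.33 to 9.05, 8.32 to 9.35 and 4.23 to 4.78.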

How the results depend on the processing

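No paired analysis was possible because the labels do not give the litter of each embryo, so any pairing by litter was left out of the fits. The count of members lower (7) was 17 with array quality weights, 3 without _x_at, _s_at and _a_at probe sets (only 5 of the 7 could be read, since Tnnt1 and Casq2 have no other probe set), 0 with the other muscle genes as covariate and 0 at an adjusted p of 0.01. Without 1 array it ranged from 0 (without wild-type 29 or GR-null 25) to 21 (without GR-null 17), with 2 without wild-type 28, 3 without GR-null 26 and 4 without GR-null 5. The count of members higher (0) was 1 with the muscle covariate. The count over all genes (539) was 1944 with array weights, 884 with the mean of all probe sets, 60 with the muscle covariate and 46 at 0.01, and ranged from 79 to 1640 without 1 array. The count of other muscle genes lower (6) was 24 with array weights, 13 with the mean of all probe sets and 0 at 0.01, and ranged from 1 to 29 without 1 array.

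Some log2 fold changes changed sign; the cause was not tested. None was of a gene past the threshold with all arrays, other than Tnnt2. Without _x_at, _s_at and _a_at probe sets Tnnt2 had 0.39 and Myh1 0.03, since another probe set was read. With array weights Myh2 had -0.09 and Myf5 -0.02. With the mean of all probe sets Myh4 had -0.08 and Pax7 0.03. With the muscle covariate Myh7 had 0.33, Myh4 -0.04, Myl1 0.20, Mylpf 0.16, Actn3 0.74, Tnnt3 0.01, Tnni2 0.06, Tnnc2 0.02, Mybpc2 0.85, Acta1 0.05, Ttn 0.20, Neb 0.13, Casq1 0.08, Atp2a1 0.15, Pax7 0.20, Mef2c 0.19 and Trim63 0.18. Without 1 array the ranges that crossed 0 or reached it were -0.27 to 0.04 for Myl4, -0.25 to 0.05 for Tnni1, -0.18 to 0.31 for Myh2, 0.00 to 0.07 for Myh4, -0.11 to 0.00 for Chrna1, -0.14 to 0.00 for Mb, -0.02 to 0.16 for Myod1, -0.05 to 0.16 for Myf5, -0.10 to 0.04 for Pax7, -0.06 to 0.06 for Mef2c and -0.07 to 0.23 for Fbxo32. The Y-linked covariate was Eif2s3y alone.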
